A study of Homo sapiens with 6 samples.

Results

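GAGE, PAGE and XAGE are related families of cancer-testis antigens, small acidic proteins encoded in clusters on the X chromosome. The members described here are the 10 genes GAGE12B, PAGE1, PAGE2, PAGE2B, PAGE5, XAGE1A, XAGE1B, XAGE2, XAGE3 and XAGE5, chosen by name and found by Ensembl identifier among 57820 human gene rows. The table held 22 rows with a GAGE, PAGE or XAGE symbol in all, and the 12 outside the list are given beside the members they belong with. The study sequenced messenger RNA of HCT116, a widely used line from a human colorectal carcinoma, in 3 unmodified samples (WT) and 3 samples of DKO1, an HCT116 derivative in which the submitters give both DNMT1 and DNMT3B as knocked out. No other allele or treatment is named, and WT and DKO1 cells were grown in the same medium with foetal bovine serum. A single DKO1 line was used, so differences made by the knockouts and other differences between the lines cannot be told apart. Replicates are numbered 1 to 3 in each group, with no word on separate cultures in the labels, so a p-value reflects only how far these samples vary, possibly for technical reasons alone.

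Cancer-testis antigens are made in germ cells of the testis, and some also in placenta, but are silent in most other adult tissues. They are best known as antigens that T cells or antibodies recognise on tumours that have switched them on. In healthy somatic cells the promoters of the X-linked families are typically methylated at CpG dinucleotides. DNMT1 copies CpG methylation onto new DNA after replication, and DNMT3B places methylation de novo. Methylation was not analysed here, and all values below are RNA levels.

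DNMT1, the maintenance methyltransferase, measured 245, 250 and 231 TPM in WT replicates 1, 2 and 3 and 31.1, 30.8 and 46.8 TPM in DKO1. TPM expresses each transcript level per unit of gene length and as a part of a fixed total per sample, so levels can be compared between genes, with less certainty where the gene model is very short, as described below for GAGE12B. DNMT3B measured 8.22, 7.09 and 6.77 TPM in WT and 4.86, 4.85 and 3.56 TPM in DKO1. RNA of both genes was lower in DKO1 but still detected, at log2 differences of -2.73 (adjusted p = 3.59e-05) and -0.63 (adjusted p = 0.03). Here and below, log2 differences are DKO1 minus WT of log2(TPM + 1), a scale that understates the change of low genes, and adjusted p-values are from limma over the 13604 genes that reached 1 TPM in 3 or more samples. A call means an adjusted p under 0.05. The sequencing depth is unknown, because TPM keeps no record of it. Mitochondrial genes took 19.7% to 20.1% of TPM in WT and 21.2% to 27.7% in DKO1, and their part in the differences was not tested beyond the rescaling in the closing section.

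The region before the start of transcription is shown first, because promoter CpG sites are among those that DNA methyltransferases act on. RefSeq windows on GRCh38.p14, from 250 bases before to 50 bases after a start, were matched by symbol for all 10 members. The builds named by the submitters are hg19 and GRCh37, so these coordinates do not apply to the deposited table. Printed 5′ to 3′ are the bases before every listed start of PAGE1 (minus strand, chrX:49695985-49696234), PAGE5 (plus strand, chrX:55220096-55220345) and XAGE1B (minus strand, chrX:52517069-52517262). They stand for a gene already high in WT, a gene at or near 0 in WT, and the highest member in DKO1. Capitals mark the 7-base motif GCGCATG on either strand, and the 10 capitals in PAGE5 hold GCGCATGCGC, in which the motif lies on both strands and overlaps itself.
PAGE1: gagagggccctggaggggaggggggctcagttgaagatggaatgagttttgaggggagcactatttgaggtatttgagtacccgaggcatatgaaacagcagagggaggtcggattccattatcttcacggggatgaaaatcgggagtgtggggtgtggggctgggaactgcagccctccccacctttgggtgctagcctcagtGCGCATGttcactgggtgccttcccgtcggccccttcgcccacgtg
PAGE5: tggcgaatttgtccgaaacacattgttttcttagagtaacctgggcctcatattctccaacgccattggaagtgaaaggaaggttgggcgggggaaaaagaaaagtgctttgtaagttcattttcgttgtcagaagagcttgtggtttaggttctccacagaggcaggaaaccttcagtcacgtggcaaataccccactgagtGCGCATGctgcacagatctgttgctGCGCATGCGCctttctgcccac
XAGE1B: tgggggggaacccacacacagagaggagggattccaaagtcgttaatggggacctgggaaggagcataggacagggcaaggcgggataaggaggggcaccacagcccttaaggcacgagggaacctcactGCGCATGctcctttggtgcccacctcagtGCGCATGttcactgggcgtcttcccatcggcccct
Each stretch carries CpG sites, 9 in PAGE1, 9 in PAGE5 and 7 in the shorter XAGE1B stretch, and at least 1 copy of the motif near its downstream end.

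The motif was chosen after these sequences were seen. GCGCATG makes up one side of the recognition sequence GCGCATGCGC of NRF1, a transcription factor whose binding is known to be sensitive to CpG methylation. The motif was present in the first-listed window of 9 of the 10 members, XAGE2 being the exception, against 4.43% of all 35116 promoter windows of the same length. The full GCGCATGCGC, which overlaps it, was in 2 members, PAGE2B and PAGE5, against 1.24% of windows. Aligned on the last match of the motif on either strand, 30 bases around it show how alike the families are, with GAGE1 standing for the GAGE genes. In PAGE2B and PAGE5 that match is CATGCGC, the motif on the other strand, so GCGCATG begins 3 bases earlier in those lines.
GAGE1: cccgcctcagtGCGCATGttcactgggcgt
PAGE1: ctagcctcagtGCGCATGttcactgggtgc
XAGE1B: cccacctcagtGCGCATGttcactgggcgt
XAGE3: ccgacctcactGCGCATGtccactgggtgt
XAGE5: gcctccttagtGCGCATGttcattgggcac
PAGE2: ccccactcagtGCGCATGctgcacagacct
PAGE2B: ctgttgttGCGCATGCGCcttgctgcccgc
PAGE5: ctgttgctGCGCATGCGCctttctgcccac
The GAGE1, PAGE1, XAGE1B, XAGE3 and XAGE5 stretches resemble one another on both sides of the motif. PAGE2B and PAGE5 form a second pair around GCGCATGCGC, and the PAGE2 stretch resembles the upstream copy of the motif in the PAGE5 sequence printed above. The XAGE1A and XAGE1B first windows were identical over all 300 bases (100% of the alignment), those of PAGE2 and PAGE2B were identical at 81.3%, PAGE2 and PAGE5 at 70.4%, GAGE12B and PAGE1 at 74.2%, and PAGE1 and XAGE3 at 67.6%. Members of a pair are therefore not independent examples of a motif.

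**Figure D1:**
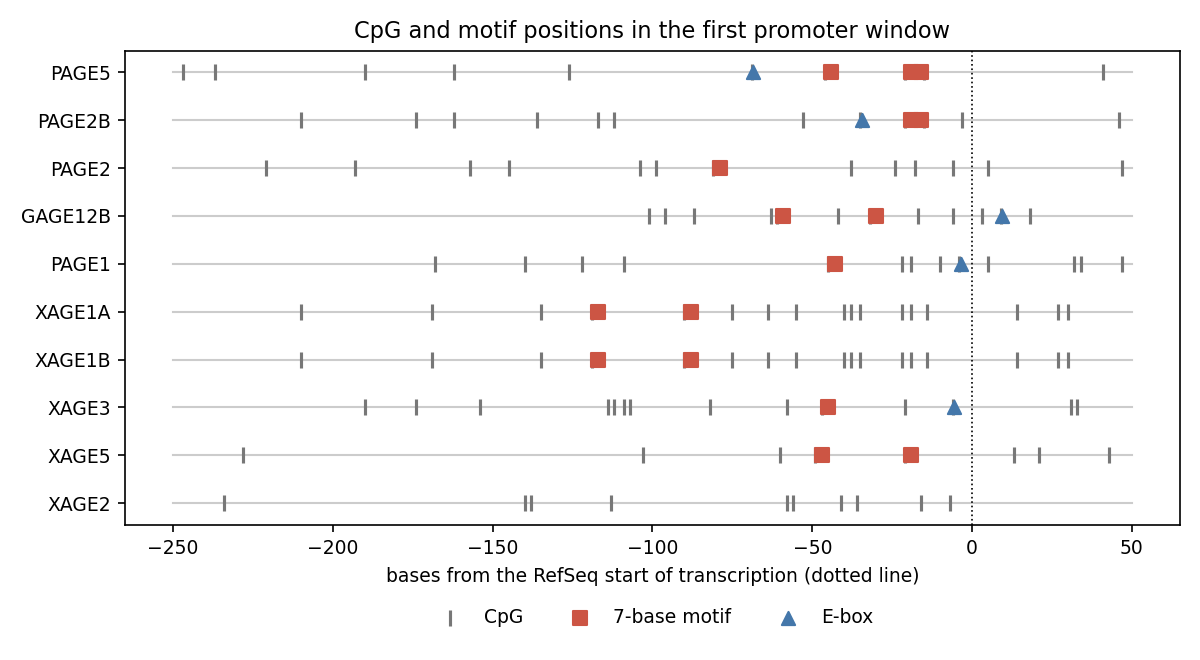
CpG dinucleotides (grey ticks), the 7-base motif GCGCATG (red squares) and the E-box CACGTG (blue triangles) in the first-listed RefSeq promoter window of each member, plotted by distance in bases from the start of transcription (dotted line). The 7-base motif lies within 120 bases before the start in 9 members, and XAGE2 has neither motif.

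Spacing of the motifs was also shared by some members. The E-box CACGTG, a sequence bound by MYC, USF and related factors, was in the first window of 5 members, GAGE12B, PAGE1, PAGE2B, PAGE5 and XAGE3, against 7.26% of all windows. It lay 40 bases after the last GCGCATG, counted from first base to first base, in GAGE12B, PAGE1, XAGE3 and also GAGE1. In PAGE2B and PAGE5 the E-box lay before the last GCGCATG instead, at -18 and -52 bases by the same count. XAGE1A, XAGE1B, GAGE12B and GAGE1 carried 2 copies of GCGCATG 29 bases apart, and XAGE5 carried 2 copies 28 bases apart. The TATA box TATAAA was in 0 members (11.5% of all windows), and the GC box GGGCGG was in 4 (45.0%). The first-listed member windows held 8 to 17 CpG sites, against a median of 14 over all windows, which include further listed starts. The usual CpG-island limits are over 50% G and C and observed over expected CpG of at least 0.6. Within the first window 2 of the 10, PAGE2 and PAGE2B, passed both, against 46.8% of all windows. The second-listed windows of XAGE3 and XAGE5 held 5 CpG sites each and no GCGCATG. Further windows of XAGE1A and XAGE1B held 14 or 15 CpG sites and 2 copies of GCGCATG. All searches covered both strands, and a match is a description of letters, not a site of binding.

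Carrying the motif did not separate the genes by their RNA. Over the 22 family rows, 20 first windows held it and 2, those of PAGE4 and XAGE2, did not. PAGE1, with the motif, was already high in WT, PAGE3, with the motif, was listed at 0 TPM in all 6 samples, and PAGE4 and XAGE2, without it, were higher in DKO1 (values below). PAGE4 and XAGE2 passed the filter solely through their DKO1 samples and so had to differ, and a role of the motif was not tested.

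All 10 members were higher in DKO1 by the test and 0 were lower, either as calls or at an unadjusted p below 0.05. Of all tested genes, 18.8% were called higher and 9.6% lower, and the median log2 difference was 2.06 over the members against 0.07 over all tested genes. The count is a description only, since 7 members passed the filter on low values solely through their DKO1 samples and so had to differ. They were GAGE12B, PAGE2, PAGE2B, PAGE5, XAGE1A, XAGE2 and XAGE3, and their p-values and ranks below are likewise a description. Every DKO1 sample was above every WT sample in 10 of 10 members, which held for 27.5% of all tested genes. In bulk RNA, more cells making a transcript and more RNA per cell cannot be told apart.

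**Figure D2:**
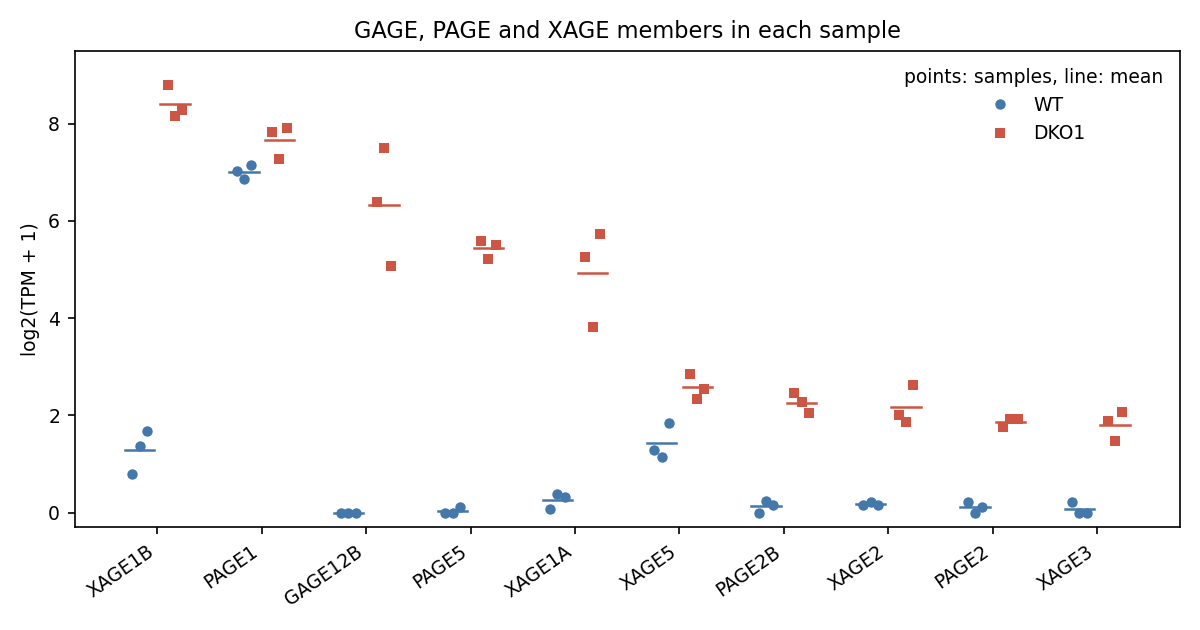
Level of each member in each sample, as log2(TPM + 1), with WT and DKO1 points side by side and a line at each group mean. XAGE1B and PAGE1 are the highest in DKO1, PAGE1 alone is high in WT, and the groups do not overlap in any member.

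The levels fell into tiers, in which the place of GAGE12B rests on its 117-base model and is uncertain. In WT, PAGE1 stood alone at a mean of 129 TPM. XAGE5 and XAGE1B followed at 1.75 and 1.51 TPM with overlapping samples, and each of the other 7 members was at or below 0.3 TPM in every WT sample. In DKO1, XAGE1B was highest at 347 TPM, with no sample overlapping the next gene. PAGE1, GAGE12B, PAGE5 and XAGE1A followed at 206, 98.3, 42.6 and 34.2 TPM, each overlapping its neighbour in that order. After a gap came XAGE5, PAGE2B, XAGE2, PAGE2 and XAGE3 at 5.04, 3.85, 3.63, 2.67 and 2.57 TPM, again with each overlapping the next. Summed, the 10 members measured 133, 118 and 147 TPM in WT replicates 1, 2 and 3 and 860, 680 and 699 TPM in DKO1. The lowest DKO1 total was 4.63 times the highest WT total.

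XAGE1 is the XAGE antigen best known from lung adenocarcinoma, where patients make antibodies against it. It is encoded by near-identical copies, and the table has a row for XAGE1A (ENSG00000204379.6) and one for XAGE1B (ENSG00000204382.7). XAGE1B measured 0.74, 1.59 and 2.21 TPM in WT and 446, 284 and 311 TPM in DKO1. The mean rose from 1.51 ± 0.738 to 347 ± 86.9 TPM (SD, n = 3), a ratio of 229, and the lowest DKO1 sample lay 282 TPM above the highest WT sample. The log2 difference was 7.13 (SE 0.26, adjusted p = 6.19e-06), rank 2 of the 13604 tested genes.

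XAGE1A measured 0.05, 0.3 and 0.25 TPM in WT and 37.2, 13.2 and 52.2 TPM in DKO1. The 3 DKO1 samples were all above WT but spread widely, with replicate 2 the lowest. The log2 difference was 4.68 (SE 0.45, adjusted p = 0.000254), rank 26, but XAGE1A passed the filter solely through DKO1 and so had to differ. In GENCODE release 29, 100% of the 75-base stretches of XAGE1A transcripts also occur in XAGE1B, and 76.3% of those of XAGE1B occur in XAGE1A, so how reads were split between the rows is uncertain.

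A further row bears on the split. The gene row closest to XAGE1A over the 6 samples, ENSG00000204375.5, for which the reference tables gave no symbol, listed 0, 0 and 0.25 TPM in WT and exactly the XAGE1A values, 37.15, 13.22 and 52.17 TPM, in DKO1. Of 12639 rows at 1 TPM or above in all 3 DKO1 samples, 26 shared their 3 DKO1 values with another row, and 6 of those were at 10 TPM or above. XAGE1A was the only family row at 1 TPM or above with such a match. The XAGE1A share of the summed XAGE1A and XAGE1B levels was 7.69%, 4.45% and 14.4% in DKO1 replicates 1, 2 and 3. The sum depends little on the split between these 2 rows if their models are of like length. In GENCODE 29 both longest models are 733 bases, but under other identifier versions. The row of equal values is not in the sum, and whether it shares reads with them was not tested. The sum was 0.79, 1.89 and 2.46 TPM in WT and 483, 297 and 364 TPM in DKO1, a ratio of 223. Its log2 difference was 7.16 (SE 0.28, adjusted p = 7.51e-06).

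PAGE5, a PAGE gene also known as a cancer-testis antigen, went from near absence to a moderate level. PAGE5 (ENSG00000158639.7) was listed at 0, 0 and 0.09 TPM in WT and measured 47.3, 36.1 and 44.5 TPM in DKO1. The DKO1 samples were tightly grouped at 42.6 ± 5.81 TPM (SD, n = 3), far above any WT sample. The log2 difference was 5.4 (SE 0.16, adjusted p = 5.11e-06), rank 10 of all tested genes. PAGE5 passed the filter solely through DKO1 and so had to differ. PAGE5 shares little sequence with other annotated genes (2.83% of its 75-base stretches). PAGE5 and GAGE12B were the 2 members that went from under 0.1 TPM in all WT samples to 1 TPM or more in all DKO1 samples, a pattern held by 401 of all 57820 human rows (0.694%). Any row with this pattern passes the filter, so these 401 lie among the 13604 tested genes, as do all 10 members.

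PAGE2 and PAGE2B are adjacent copies on the X chromosome, with PAGE5 a short way downstream, and both rose to a few TPM. PAGE2B (ENSG00000238269.4) measured 0, 0.18 and 0.12 TPM in WT and 4.55, 3.83 and 3.16 TPM in DKO1. Its log2 difference was 2.13 (SE 0.16, adjusted p = 7.93e-05). PAGE2 (ENSG00000234068.2) measured 0.17, 0 and 0.09 TPM in WT and 2.38, 2.79 and 2.83 TPM in DKO1, a log2 difference of 1.76 (SE 0.14, adjusted p = 9.05e-05). Groups did not overlap in either gene, and neither reached the level of PAGE5 in any sample. They share 31% of PAGE2 and 40.4% of PAGE2B 75-base stretches, and PAGE2 held 34.3%, 42.1% and 47.2% of their sum in the 3 DKO1 samples. Their sum was steadier than either row, at 6.93, 6.62 and 5.99 TPM in DKO1 against 0.17, 0.18 and 0.21 TPM in WT, a log2 difference of 2.66 (SE 0.13, adjusted p = 1.57e-05). Both rows and their sum passed the filter solely through DKO1 and so had to differ.

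PAGE1 differed from the others in being abundant in WT cells. PAGE1 (ENSG00000068985.4) measured 130, 115 and 141 TPM in WT and 227, 153 and 239 TPM in DKO1. All 3 DKO1 samples were above the 3 WT samples, but DKO1 replicate 2 was only 11.8 TPM above the highest WT sample. The means were 129 ± 13.3 and 206 ± 46.6 TPM (SD, n = 3), a ratio of 1.6, and the log2 difference was 0.66 (SE 0.19, 95% interval 0.22 to 1.09, adjusted p = 0.0351), rank 2251. The call was lost in 6 of 14 alternatives. Without WT replicate 1, WT replicate 2, WT replicate 3, DKO1 replicate 1 or DKO1 replicate 3 the adjusted p was 0.0974, 0.121, 0.0763, 0.109 or 0.0702, and with no filter on low genes it was 0.0632. With the replicate number as a block it was 0.00583. PAGE1 shares none of its 75-base stretches exactly with another annotated gene. That search did not cover near matches, and its annotation is on another build than those the submitters name. Whether the PAGE1 level depends on how reads were divided among similar genes was therefore not tested.

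The PAGE genes outside the list differed from each other. PAGE4, a disordered protein of prostate and reproductive tissue that lies next to PAGE1, measured 0.62, 0.32 and 0.63 TPM in WT and 5.62, 4.28 and 7.15 TPM in DKO1, a ratio of 10.9 and a log2 difference of 2.12 (adjusted p = 0.000238). It passed the filter solely through its DKO1 samples and so had to differ. PAGE3, the annotated neighbour of PAGE5, was listed at 0 in all 6 samples.

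XAGE2 and XAGE3, XAGE genes also known from placenta, and XAGE5 were higher in DKO1 at levels of a few TPM. XAGE2 (ENSG00000155622.6) measured 0.11, 0.17 and 0.11 TPM in WT and 3.05, 2.65 and 5.18 TPM in DKO1, a log2 difference of 2.0 (SE 0.21, adjusted p = 0.000403). XAGE3 (ENSG00000171402.10) measured 0.16, 0 and 0 TPM in WT and 2.72, 1.78 and 3.21 TPM in DKO1, a log2 difference of 1.74 (SE 0.18, adjusted p = 0.0004). Both lay under 0.2 TPM in every WT sample and above 1 TPM in every DKO1 sample. XAGE2 and XAGE3 thus passed the filter solely through DKO1 and had to differ. XAGE5 (ENSG00000171405.8) was already detected in WT, at 1.45, 1.21 and 2.59 TPM, and measured 6.19, 4.09 and 4.85 TPM in DKO1. Its groups were separate but close, the ratio of the means was 2.88, and the log2 difference was 1.15 (SE 0.23, adjusted p = 0.00936). None of XAGE2, XAGE3 and XAGE5 shares a 75-base stretch with another annotated gene.

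**Figure D3:**
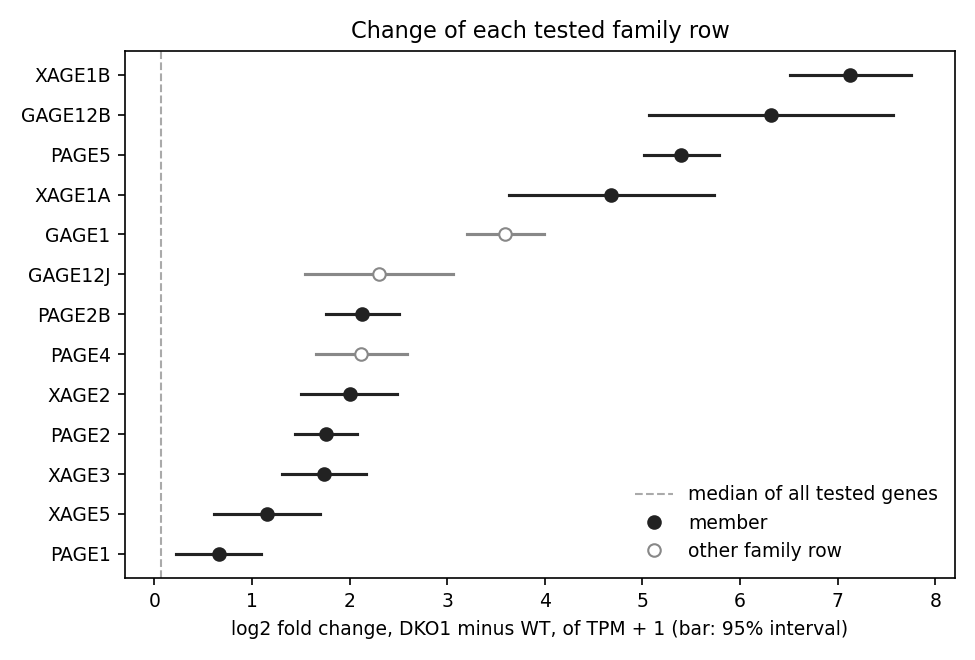
Log2 difference, DKO1 minus WT, of TPM + 1 for each of the 13 tested GAGE, PAGE and XAGE rows, with 95% intervals from limma. All 13 intervals lie above 0, PAGE1 has the smallest difference (0.66), and XAGE1B the largest (7.13). GAGE1, GAGE12J, PAGE4 and 7 of the members passed the filter solely through DKO1 and so had to differ.

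GAGE genes form a tandem array of near-identical copies, first described as antigens seen by T cells on melanoma. The row for GAGE12B (ENSG00000236737.1) was listed at 0 in all 3 WT samples and measured 83.3, 179 and 32.6 TPM in DKO1. All DKO1 samples were far above 0, yet the highest was 5.49 times the lowest, with a mean of 98.3 ± 74.4 TPM (SD, n = 3). Relative to its mean, no other member varied as much among DKO1 samples. The log2 difference was 6.32 (SE 0.53, adjusted p = 0.000135), rank 5, but the row passed the filter solely through DKO1 and so had to differ. The gene model behind the row, with the same identifier and version in GENCODE 29, is 117 bases long, and 100% of its 75-base stretches (43 of 43) occur in other genes. Expression of GAGE12B itself therefore cannot be told apart from that of its relatives. Its promoter window described above belongs to the RefSeq gene of that name, whose start lies outside the 117-base model.

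The short model also carries weight in TPM, which divides by length. GAGE12B held 73.9%, 92.2% and 55.2% of the summed TPM of the 11 GAGE rows in DKO1 replicates 1, 2 and 3. Weighted by model length, which returns the measure towards reads, it held 14.4%, 34.5% and 7.38%. These shares rest on the longest GENCODE 29 models, 3129 bases for GAGE1 and 520 to 585 bases for the GAGE rows other than GAGE1 and GAGE12B. The GAGE1 identifier has another version there, and a shorter GAGE1 model would raise the GAGE12B shares. The lengths behind the deposited TPM are not known here. Only 1 other of 19263 protein-coding rows had a longest model under 200 bases, LUZP6 at 177 bases, which measured 0, 23.4 and 5.55 TPM in WT and 44.5, 93.2 and 20.5 TPM in DKO1 (adjusted p = 0.0747). LUZP6 and GAGE12B had the same order over the DKO1 samples, replicate 2 above replicate 1 above replicate 3. Whether short models alone give that order was not tested.

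The other GAGE rows had lower levels in DKO1 than GAGE12B. The 2 that were tested, GAGE1 and GAGE12J, passed the filter solely through their DKO1 samples and so had to differ, and their values are a description. GAGE1 measured 0.15, 0.15 and 0.37 TPM in WT and 16.2, 12.2 and 13 TPM in DKO1, a log2 difference of 3.59 (adjusted p = 1.32e-05). GAGE12J was listed at 0 in WT and measured 5.53, 1.8 and 5.57 TPM in DKO1, a log2 difference of 2.3 (adjusted p = 0.00172). GAGE12E, GAGE12H and GAGE2A were below the filter, with DKO1 values of 4.84, 0.28 and 4.41 TPM, of 1.77, 0.48 and 1.42 TPM, and of 1.08, 0.36 and 2.07 TPM, against at most 0.2 TPM in WT. GAGE12J, GAGE12E, GAGE12H and GAGE2A were each lowest in DKO1 replicate 2, the sample in which GAGE12B was highest. GAGE10, GAGE12C, GAGE12D, GAGE12F and GAGE12G were listed at 0 in all 6 samples, and GAGE12C, GAGE12D and GAGE12G have no 75-base stretch of their own, nor has GAGE12E, which was not at 0.

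A sum over the array still depends on how reads were split, because a read given to the short GAGE12B model adds more TPM than a read given to a longer copy. The 11 GAGE rows summed to 0.15, 0.15 and 0.57 TPM in WT and 113, 194 and 59.1 TPM in DKO1, a log2 difference of 6.43 (SE 0.4, adjusted p = 3.38e-05). Without GAGE12B, the 10 rows summed to the same WT values and to 29.4, 15.2 and 26.5 TPM in DKO1, 23.7 ± 7.54 (SD, n = 3), a log2 difference of 4.22 (SE 0.27, adjusted p = 4.02e-05). GAGE RNA was higher in DKO1 with and without the short row, but both sums passed the filter solely through DKO1 and so had to differ. The mean DKO1 level differed 5.15-fold between these sums.

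**Figure D4:**
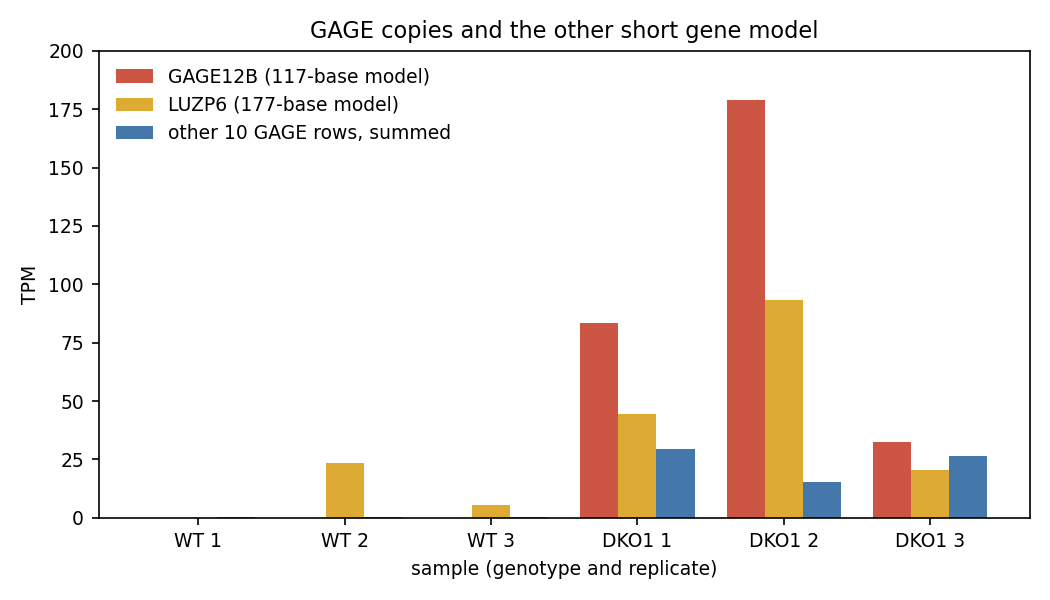
TPM of GAGE12B, of LUZP6 (the only other protein-coding row with a longest model under 200 bases) and of the other 10 GAGE rows summed, as bars for each of the 6 samples. GAGE12B and LUZP6 are highest in DKO1 replicate 2, at 179 and 93.2 TPM, where the other GAGE rows are lowest, at 15.2 TPM.

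The family lies in 3 blocks on the X chromosome in the GENCODE 29 gene order, the GAGE array with PAGE1 and PAGE4, the XAGE genes, and PAGE2B, PAGE2, PAGE5 and PAGE3. Their protein-coding neighbours, chosen after the data were seen, were examined to describe the surroundings of the members. Of 18 genes flanking the blocks, 3 on each side, 6 passed the filter, and 0 were called by limma or had an unadjusted p below 0.05. Under quantile normalization 1 of the 6, CCNB3, was called lower (log2 difference -0.71, adjusted p = 0.0178). The nearest tested flank of the first block, the chloride transporter CLCN5, measured 4.68, 4.74 and 5.01 TPM in WT and 3.75, 4.55 and 4.35 TPM in DKO1 (adjusted p = 0.461). A miss of the threshold does not show that these genes did not differ.

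Between family rows lay 5 other protein-coding genes, of which 2 were tested. SSX2, a cancer-testis antigen of another family, lies between XAGE1B and XAGE5. It was listed at 0.08, 0 and 0 TPM in WT and measured 16.6, 12.6 and 15.2 TPM in DKO1. The log2 difference was 3.93 (adjusted p = 7.73e-06), but SSX2 passed the filter solely through DKO1 and so had to differ. FAM104B, which lies between PAGE2 and PAGE5 and is not a cancer-testis antigen, went the other way, from 36.2, 39.2 and 36.8 TPM to 30.2, 28 and 28 TPM, a log2 difference of -0.37 (adjusted p = 0.0426). In WT cells FAM104B was thus expressed while the PAGE genes on both sides were near 0.

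**Figure D5:**
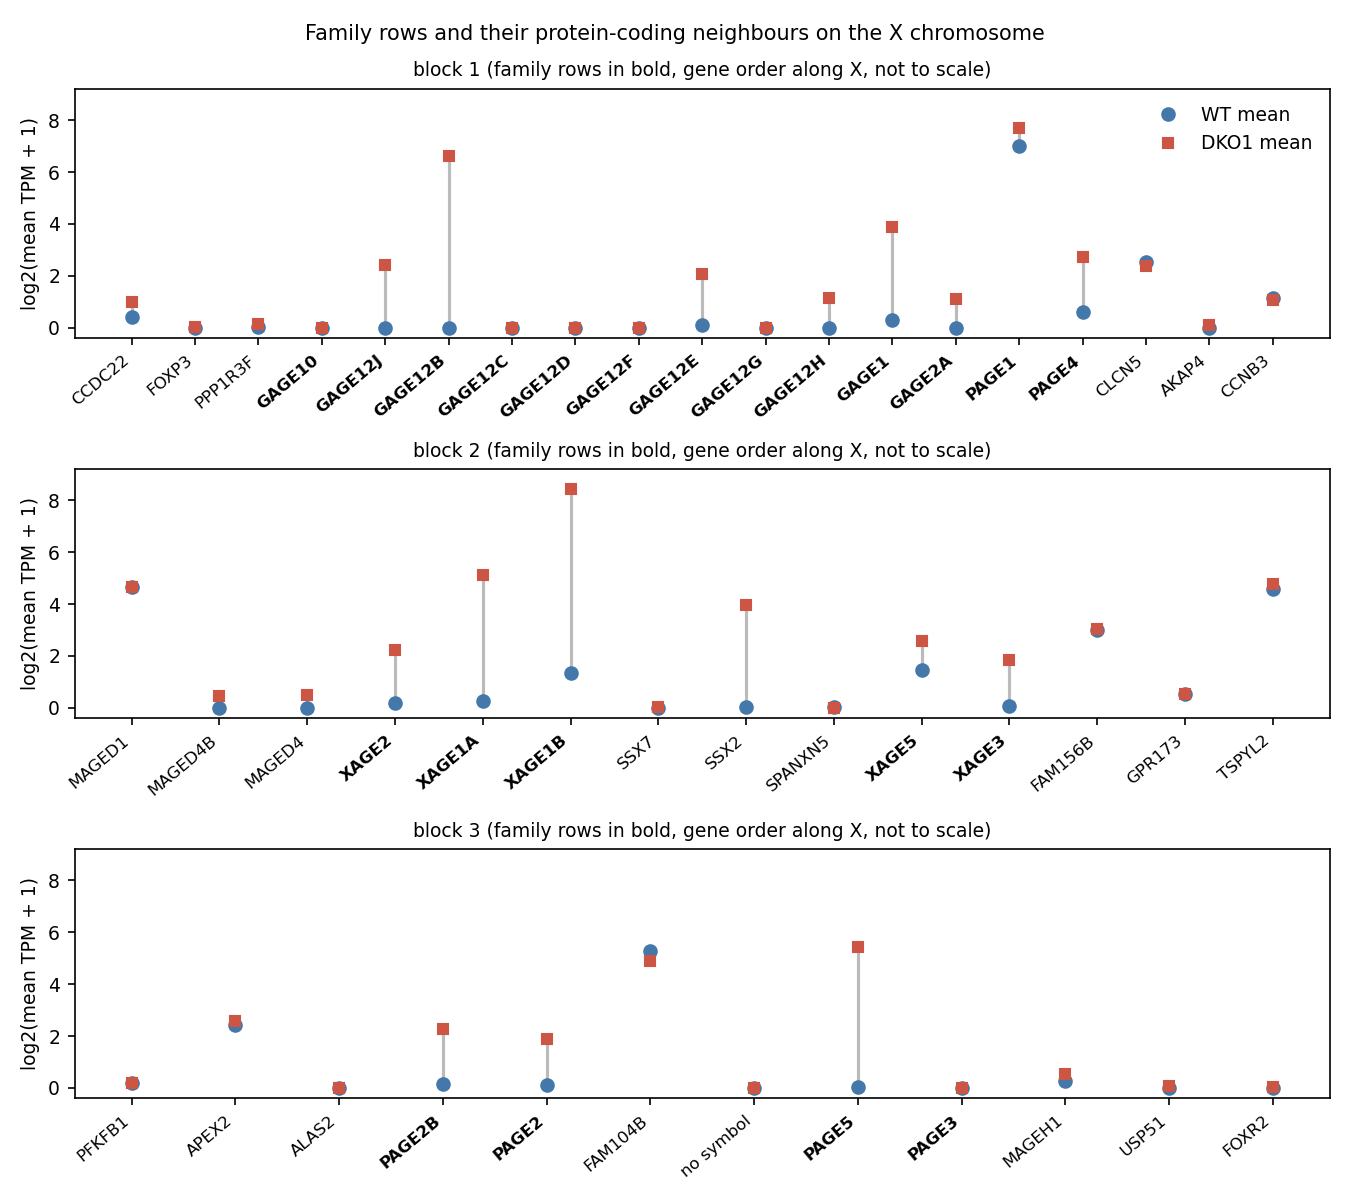
Mean level in WT and DKO1, as log2(mean TPM + 1), of the GAGE, PAGE and XAGE rows (bold) and of the protein-coding genes between them and 3 on each side, in gene order along the X chromosome and not to scale. WT and DKO1 means are farthest apart for XAGE1B (1.51 and 347 TPM), GAGE12B and PAGE5, and SSX2 between the XAGE genes also shows a gap, while among the flanking genes CCDC22, below the filter, has means of 0.333 and 0.967 TPM.

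Over the whole X chromosome, 451 genes were tested and 86 (19.1%) were higher in DKO1, close to the 18.8% of all tested genes. Without the GAGE, PAGE and XAGE rows, 73 of 438 (16.7%) were higher and 58 lower. Among 70 other X-linked cancer-testis antigens listed by name, 55 were in the table and 23 were tested. Of these 15 were higher, 0 were lower by limma or at an unadjusted p below 0.05, and the median log2 difference was 2.03. As with the members, the count and the median are partly set by the filter, since 8 of the 23 had no WT sample at 1 TPM, passed solely through DKO1 and so had to differ. Of the other 15, which had a WT sample at 1 TPM or above, 7 were higher. MAGEA6, a MAGE antigen, had the largest difference of that list, at 4.72, below XAGE1B, GAGE12B and PAGE5 and just above XAGE1A (4.68). SSX2 (3.93) and the testis antigen FMR1NB (3.5) followed.

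Of 18 listed DNA methylation and CTCF-family genes, 16 were tested, 2 were higher (12.5%, against 18.8% of all tested genes), 6 were lower, and the median log2 difference was -0.39. Both counts are partly set by the filter. CTCFL passed it solely through DKO1 and a lower gene solely through WT, so each had to differ. Whether this list and the antigens differ was not tested. CTCFL, a germ cell paralogue of the insulator protein CTCF and itself a cancer-testis gene, rose from a mean of 0.517 to 63.1 TPM (log2 difference 5.4), and the methyl-CpG binding protein MBD1 from 13.3 to 25.1 TPM (log2 difference 0.86). DNMT1 and DNMT3B, given above, were among the 6 that were lower.

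By a rule of smallest root mean square difference in log2(TPM + 1) over the 6 samples, the 3 tested genes closest to each member were found. XAGE1B was closest to UCHL1, a neuronal ubiquitin hydrolase, at a difference of 0.93, with UCHL1 at 0.28, 0.09 and 0.05 TPM in WT and 273, 223 and 219 TPM in DKO1. IFIT1 (1.27) and MAGEA6 (1.46) came next, and no tested gene was as close to XAGE1B as the nearest gene of any other member was to that member. PAGE5 was closest to the zinc finger gene ZNF266 (0.29), to HDGFL3 (0.35) and to TDRD12 (0.35), a piRNA pathway gene of germ cells. After the row of equal values, XAGE1A was closest to PRSS21 (0.29), a testis serine protease that measured 29.8, 10.4 and 38.3 TPM in DKO1, with the same order of replicates, and then to ST8SIA6-AS1 (0.5).

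GAGE12B was closest to C5orf58 (0.58), a row with no symbol (0.7) and the germ cell factor SOHLH2 (0.78). PAGE1 was closest to widely expressed genes, RPN2 (0.14), a subunit of the oligosaccharyltransferase, PSME1 (0.2), a proteasome activator, and TMEM106C (0.21). XAGE5 was closest to CALB2 (0.14), KIAA0513 (0.16) and TSC22D3 (0.22). XAGE2 was closest to C10orf82 (0.09), NCAM2 (0.1) and KLK10 (0.13), and XAGE3 to DUOXA1 (0.05), ZNF30 (0.12) and SNHG27 (0.13). PAGE2 was closest to MYCT1, LINC01602 and BHMT2 (each 0.11), and PAGE2B to a row with no symbol (0.09), CPQ (0.12) and HOXD13 (0.13). For XAGE2, XAGE3, PAGE2 and PAGE2B, the closest genes are likewise low in DKO1 and near 0 in WT, whereas those of XAGE5 had WT means of 1.69 to 1.87 TPM.

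The labelled cell type was checked against marker lists. Markers of colorectal epithelium summed to 942 to 1180 TPM in WT and 701 to 933 TPM in DKO1, and 2 of the 9, VIL1 and CLDN3, were under 1 TPM in all 6 samples. Of the 7 tested, 2 were higher, CDH1 (mean 2.97 in WT and 9.82 TPM in DKO1) and CLDN4 (2.32 and 5.41 TPM). CDX2 (1.31 and 0.643 TPM) was the 1 that was lower, but it passed the filter solely through WT and so had to differ. EPCAM measured 457 to 536 TPM in WT and 371 to 500 TPM in DKO1 (adjusted p = 0.624), and KRT8 had means of 382 and 219 TPM with groups that did not overlap (adjusted p = 0.0543). The part of these markers in the members' differences was not tested. Markers of male germ cells, in which cancer-testis antigens are typically made, summed to 0.15 to 0.25 TPM in WT and 4.29 to 5.37 TPM in DKO1. Of those 9 genes, 5 (PRM1, PRM2, TNP1, TNP2 and ACTL7A) were listed at 0 in every sample, and DAZL alone was tested and was higher. DAZL passed the filter solely through DKO1 and so had to differ. XAGE1B alone was at least 52.8 times the whole germ cell sum in every DKO1 sample. Markers of trophoblast, the placental lineage, summed to 0.14 to 0.22 TPM in WT and 2.38 to 2.43 TPM in DKO1. HLA-G alone was tested and was higher, and the other 9 of 10 were under 1 TPM in all samples. Like DAZL, HLA-G passed the filter solely through DKO1 and so had to differ. Fibroblast markers summed to 1.18 to 1.83 TPM in WT and 3.01 to 3.38 TPM in DKO1, and blood markers to 0.14 to 0.35 TPM in WT and 1.2 to 1.26 TPM in DKO1, so both sums were higher in DKO1 without overlap, though no gene of either list reached the filter. Endothelial markers summed to 0.02 to 0.23 TPM in WT and 0.06 to 0.16 TPM in DKO1.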

How the data were processed

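The authors deposited 1 table of TPM per gene, rounded to 2 decimals, for 6 stranded messenger RNA libraries. RSEM 1.2.21, STAR 2.5.3a, edgeR 3.12.1, FastQC and Trim Galore 0.4.0 are named, with hg19 and GRCh37 and with neither role nor order, per the submitters' processing notes. Which annotation and strand setting the counting used is not given in the sources used here, and antisense overlap cannot be resolved. TPM keeps no depth, so no counting interval is given, and a listed 0 may be an estimate below the rounding.

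Of 57897 rows, 77 with spike-in style names were left out, and 51996 of the 57820 human rows (89.9%) had a symbol in the reference tables. Genes reaching 1 TPM in 3 or more samples were fitted with limma 3.58.1 in R 4.3.3 on log2(TPM + 1), using genotype alone and a trended variance, and p-values were adjusted by the Benjamini-Hochberg method over all 13604. The script was tested on simulated data. No TPM ratio is given where the WT mean was below 0.5 TPM. Symbols came from a separate gene name reference. Gene order, model lengths and shared 75-base stretches came from GENCODE 29 and promoter windows from RefSeq, both on GRCh38. Windows were searched with Python 3.11.15.

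The members, gene lists and tests were chosen with earlier results of these data known. Named genes are the members, other family rows, the DNMT genes, the 3 closest genes of each member, and up to 3 called genes of each list with the largest change. Neighbours, motifs, LUZP6 and the row of equal values were chosen after their values were seen, and no protein sequence was used here. Replicate numbers come from the labels. Deviations from the group means correlated at 0.350, 0.572 and 0.267 between WT and DKO1 samples of the same number, so the numbers may pair the samples. A fit with the replicate number as a block was an alternative. Except where that block is named, the printed standard errors, intervals and p-values come from fits by genotype alone, which ignore any such pairing.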

Additional observations from a re-analysis of the deposited data

How the results depend on the processing

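Over the 10 members, 135 alternative values were computed from other pseudocounts, filters, scalings, a fit with no variance trend, a replicate block and leaving out each sample. The direction was never reversed, 129 kept the call, and the 6 that lost it were all of PAGE1, as given above. The 7 members that passed the filter solely through their DKO1 samples had to differ, so their kept directions and calls are a description only. The count of members called higher ranged from 9 to 10 when a sample was left out, was 9 with no filter (of all 29487 genes then tested, 14.9% were higher) and was 5 with a mean of at least 5 TPM required, where only 5 members were tested. The count called lower was 0 in every setting. The replicate block changed no call of a member or of a summed row. With GAGE12B left out, an alternative added after the data were seen, the GAGE difference was 4.22 in place of 6.43. A pseudocount of 0.1 in place of 1 raised the differences of genes near 0 in WT, to 9.62 for GAGE12B and 8.42 for PAGE5. The median log2 difference of all tested genes was 0.073, moved to -0.066 with quantile normalization, and was 0.173 after mitochondrial and spike-in rows were left out and the rest rescaled, also added later. All 10 members stayed called in both. TPM without depth limits the precision of members under a few TPM.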

Other observations

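Among the DKO1 samples, 7 of the 10 members (PAGE1, PAGE5, XAGE1A, XAGE1B, XAGE2, XAGE3 and XAGE5) were lowest in replicate 2, where 38.0% of all tested genes were lowest. GAGE12B was highest in that sample. Replicate 2 also had the fewest genes at 1 TPM or above of the DKO1 samples, 13327 against 13809 and 14419, and the largest mitochondrial share of TPM, at 27.7%.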
